A study of Mus musculus with 8 samples.

Results

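The genes described here are 10 standard targets of YAP and TEAD: Cyr61, Ctgf, Ankrd1, Crim1, F3, Myof, Dock5, Asap1, Nuak2 and Gadd45a. They were chosen by symbol from a table of 26642 genes and loci, and each symbol matched 1 row. YAP and TAZ are transcriptional coactivators that cannot bind DNA themselves. When the Hippo kinases are inactive they enter the nucleus, bind TEAD factors and raise transcription of genes such as Cyr61, Ctgf and Ankrd1, whose mRNA levels are widely used as a readout of YAP activity. TEAD factors can also work with partners that repress, and many of these targets respond to AP-1, SRF, TGF-beta or p53 as well. Messenger RNA was sequenced from CT26, a mouse colon carcinoma cell line, with a Tead1/4 knockout (KO, 4 libraries) or without it (WT, 4 libraries). Both genotypes were grown in the same medium with serum. The labels do not give the guides, the edited exons, or whether the KO cells were 1 clone or a pool. Nor do they say whether replicates were separate cultures, so each p-value reflects the spread of these libraries alone, and that spread may be technical. The question for each gene was whether it was lower, unchanged in the test or higher after loss of Tead1 and Tead4.

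Total counts per library lay between 29679405 and 32774905. Levels are given as CPM, counts relative to the library total after TMM scaling. Among the KO libraries, replicate 1 had the fewest rows with a count (14345, against 17759 to 17948 in the other KO libraries and 14566 to 15430 in WT). It also had the highest summed level of 20 G2/M genes among KO libraries, 3761 CPM against 749 to 1560 CPM in the other KO libraries and 5104 to 7496 CPM in WT. KO replicate 3 had 1042 CPM over 8 mitochondrial mRNAs, and the other KO libraries had 39789 to 45128 CPM. On these mRNAs WT replicates 1 and 4 had 9783 and 8504 CPM, and WT replicates 2 and 3 had 37039 and 28592 CPM. WT replicates 1 and 4 resembled each other (chi-square per degree of freedom 34.7), as did WT replicates 2 and 3 (35.01), while the remaining WT pairs were far apart (201 to 242). Tead1 was at 51.2, 64.8, 76.3 and 77.8 CPM in KO replicates 1 to 4, against 319, 155, 142 and 209 CPM in WT replicates 1 to 4, a log2 fold change of -1.61 (edgeR adjusted p = 0.00217). Tead4 was at 25.8, 23.3, 31.2 and 37.0 CPM in KO, against 52.1, 36.7, 39.4 and 63.2 CPM in WT (-0.71, edgeR adjusted p = 0.0261). The KO and WT values of Tead1 did not overlap, and those of Tead4 did at KO replicate 4 and WT replicate 2. Counts over a whole gene do not measure the loss of the protein. Of 8 epithelial markers only Krt18, Krt20 and Krt8 passed the filter on low counts. Epcam had a count of 0 in every library, where 3 counts would be 0.0873 to 0.110 CPM, and Cdh1 averaged 0.0752 CPM in KO and 0 in WT. The epithelial list summed to 105 to 143 CPM in KO and 56.8 to 106 CPM in WT. The sum of 8 fibroblast markers, most of it Col1a2, was 1745 to 2341 CPM in KO and 1409 to 2127 CPM in WT. Of the 6 tested, 4 were higher in KO and none lower by edgeR's test, with a median log2 fold change of 1.63. For these 4 every KO library lay above every WT library. Over all tested rows, 20.9% were called higher, 20.6% lower, and 21.1% had every KO library above every WT library. Pdgfra averaged 35.9 CPM in KO and 8.01 CPM in WT, Col3a1 143 CPM in KO and 31.3 CPM in WT, Pdgfrb 84.9 CPM in KO and 39.7 CPM in WT, and Dcn 7.83 CPM in KO and 0.0355 CPM in WT. Col1a2 (1519 CPM in KO and 1418 CPM in WT) and Col1a1 were not called. The summed level of 8 leukocyte markers was 9.93 to 16.4 CPM in KO and 1.55 to 3.75 CPM in WT, of which Cd68 averaged 11.2 CPM in KO and 2.14 CPM in WT, with Cd3e and Adgre1 at 0 in all libraries. That of 6 endothelial markers was 1.30 to 11.1 CPM in KO and 0 to 0.438 CPM in WT, with Kdr and Emcn at 0 in all. Nearly all of it was Vwf, at 1.30, 10.9, 5.67 and 4.49 CPM in KO replicates 1 to 4, against 0, 0.137, 0.337 and 0 CPM in WT, and Pecam1, Cdh5 and Tek were too low to be tested. The part of these differences in the results was not tested. In bulk RNA, fewer cells of a type and less RNA per cell cannot be told apart.

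Promoter sequences were available for 6 of the 10 genes, from RefSeq on GRCm38.p6: Cyr61 (listed there as Ccn1), Ankrd1, Crim1, F3, Myof and Gadd45a. Ctgf, Dock5, Asap1 and Nuak2 were not matched. The 250 bases before the transcription start were searched on both strands for GGAATG, the core of the TEAD binding site, and for TGANTCA, the AP-1 site, which reads the same on both strands. No match of one overlapped a match of the other. Promoters of 3 of the 6 genes held GGAATG, which occurs in 12.6% of 32817 RefSeq promoter windows of this length. None of the 6 genes searched could be one called lower in KO, since the genes that were, Dock5 and Asap1, had no promoter sequence. The 3 promoters with GGAATG are shown because they carry the letters of a TEAD site. The F3 promoter is shown beside them as one with AP-1 letters only and a negative fold change, which was not called (edgeR adjusted p = 0.0610). Capitals mark matches to either motif, 5′ to 3′ on the strand of the gene.
Cyr61: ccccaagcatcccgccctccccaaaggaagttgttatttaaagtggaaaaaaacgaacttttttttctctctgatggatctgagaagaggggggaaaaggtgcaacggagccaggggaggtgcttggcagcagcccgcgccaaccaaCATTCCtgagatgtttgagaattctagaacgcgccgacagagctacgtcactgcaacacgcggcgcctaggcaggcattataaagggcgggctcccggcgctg
Ankrd1: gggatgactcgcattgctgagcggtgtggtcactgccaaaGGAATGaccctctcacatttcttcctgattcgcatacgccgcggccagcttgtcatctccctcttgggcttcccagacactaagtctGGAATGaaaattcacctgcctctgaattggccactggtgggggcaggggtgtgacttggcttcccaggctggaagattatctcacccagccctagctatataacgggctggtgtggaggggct
Crim1: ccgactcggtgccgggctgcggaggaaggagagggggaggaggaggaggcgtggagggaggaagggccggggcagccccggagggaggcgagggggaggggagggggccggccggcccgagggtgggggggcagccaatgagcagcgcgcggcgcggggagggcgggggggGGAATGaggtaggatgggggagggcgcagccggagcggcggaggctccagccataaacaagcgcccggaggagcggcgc
F3: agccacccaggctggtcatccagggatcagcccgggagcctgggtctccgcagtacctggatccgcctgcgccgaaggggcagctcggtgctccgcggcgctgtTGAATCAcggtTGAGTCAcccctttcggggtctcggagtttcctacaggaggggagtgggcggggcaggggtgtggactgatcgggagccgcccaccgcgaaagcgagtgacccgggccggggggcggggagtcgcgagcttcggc
The Cyr61 window (chr3:145649986-145650235, minus strand) held 1 TEAD match, on the reverse strand as CATTCC, starting 103 bases before the start site. The Ankrd1 window (chr19:36119845-36120094, minus strand) held 2, starting at 210 and 123 bases before it. This whole window lies inside the GENCODE span of Ankrd1 (36111961 to 36120099), so it is upstream of the RefSeq start only. At least 2 matches were found in 1.02% of all windows. The Crim1 window (chr17:78199998-78200247, plus strand) held 1, starting at 79 bases. The F3 window (chr3:121723287-121723536, plus strand) held no GGAATG and 2 AP-1 matches, starting at 146 and 135 bases. An AP-1 match was found in 6.75% of all windows and at least 2 in 0.338%. The Myof and Gadd45a windows held neither motif. A match is a description of the letters and not a measured binding site, and these cells have no binding data here.

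**Figure D1:**
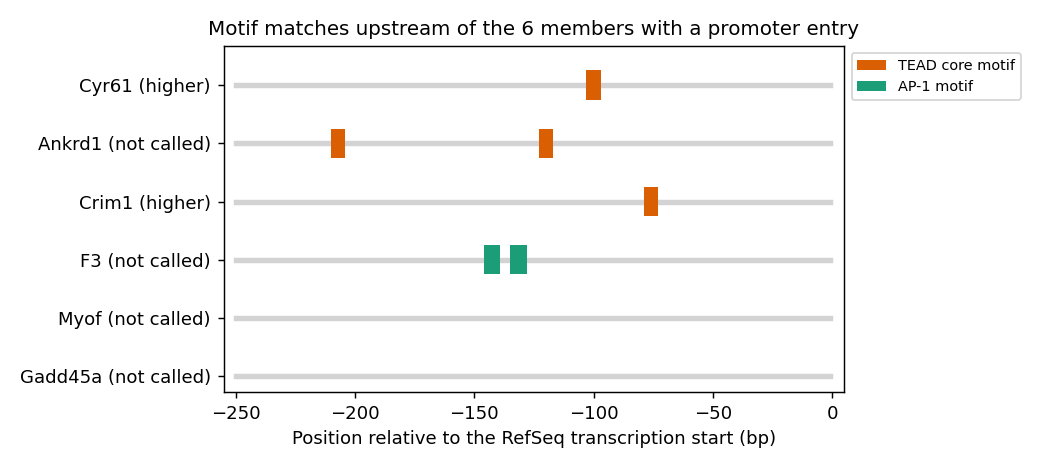
Matches to GGAATG (TEAD core, orange) and TGANTCA (AP-1, green) in the 250 bp before the RefSeq start of 6 genes, with the test call of each gene in brackets. The x axis is the position relative to the transcription start in bp. The TEAD matches stand upstream of the RefSeq starts of Cyr61 and Crim1, which were higher in KO, and of Ankrd1, which did not pass the test. Dock5 and Asap1, the genes called lower, had no promoter sequence.

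The 10 targets did not move one way. Cyr61 and Crim1 were higher in KO than in WT, Dock5 and Asap1 were lower, and the other 6 did not pass edgeR's quasi-likelihood test at an adjusted p under 0.05. Across all genes, 41.6% of 13265 tested rows were called, 20.9% higher and 20.6% lower in KO, so 4 calls among 10 genes, 2 in each direction, is a share near the background. All 10 genes passed the filter on low counts. Their median log2 fold change was 0.06, beside 0.02 for all tested rows, with a range of -0.87 to 0.88, and 6 of the 10 were positive. The 4 KO values lay wholly outside the WT values for 2 genes, both below (Dock5 and Asap1), where 40.7% of all rows were separated and 19.6% were separated below. The level of the whole table depended on the scaling. Of all calls, 50.4% were higher in KO with TMM, 64.6% with upper-quartile scaling and 63.5% when library size alone was used, and those last scalings moved the median of all rows to 0.20 on the log2 scale. Calls for Cyr61, Crim1, Dock5 and Asap1 and their directions held under all 3 other scalings.

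**Figure D2:**
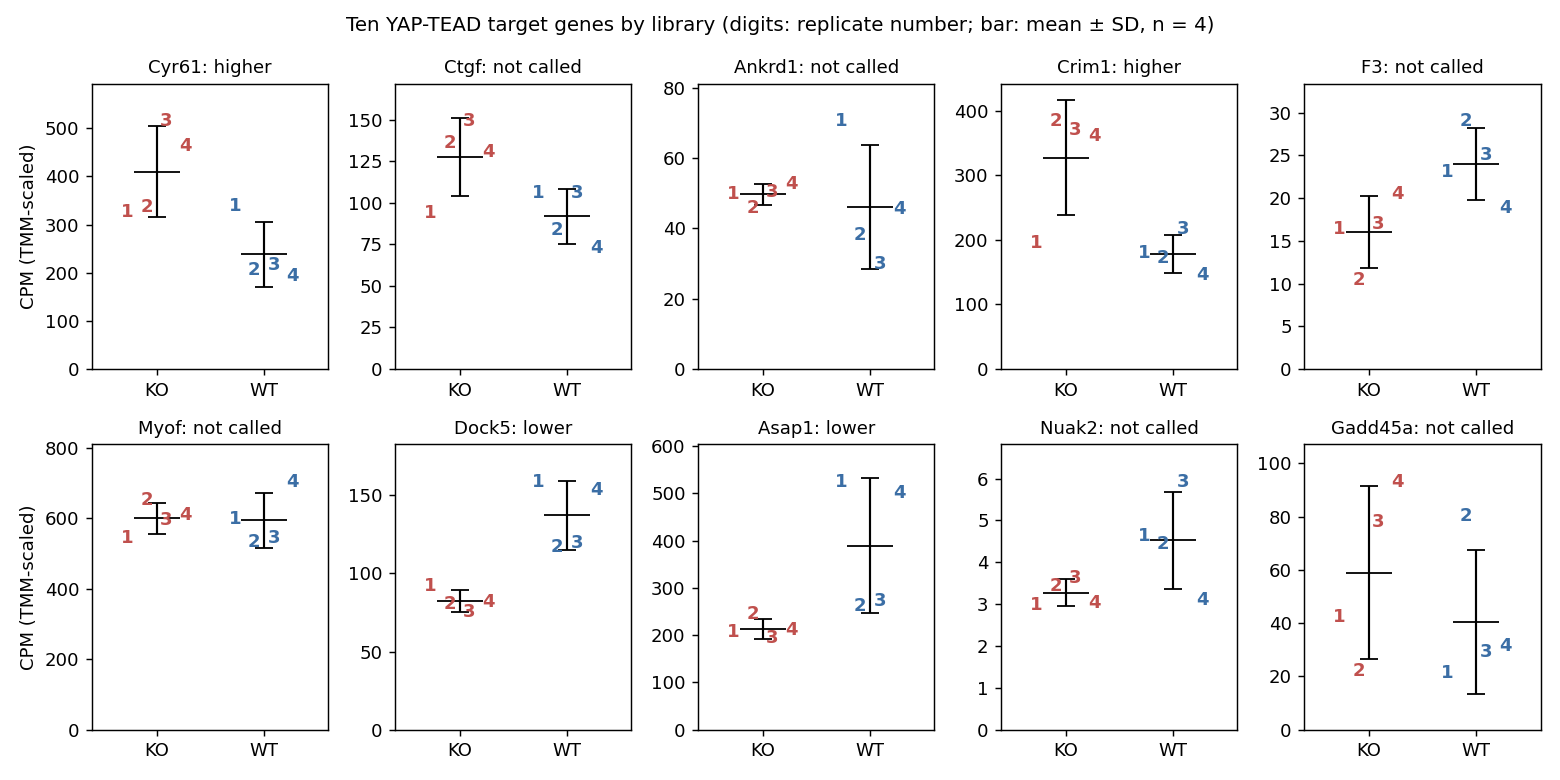
TMM-scaled CPM of each of the 10 genes, KO left and WT right, with digits for the replicate number and a bar for mean ± SD (n = 4). The axes start at 0 and differ between panels. KO and WT separate for Dock5 and Asap1, and overlap for the other 8 genes, including Cyr61 and Crim1.

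Cyr61 and Ctgf encode secreted matricellular proteins of the CCN family, which bind integrins and heparan sulfate proteoglycans, and are the most used YAP readouts. Cyr61 (ENSMUSG00000028195; GRCm38 chromosome 3, 145646976 to 145649981, minus strand) was at 325, 336, 515 and 464 CPM in KO replicates 1 to 4, against 338, 206, 216 and 192 CPM in WT replicates 1 to 4. WT replicate 1 lay above KO replicates 1 and 2, and the other 3 WT libraries lay below every KO library. The KO mean was 410 ± 94.4 CPM and the WT mean 238 ± 67.6 CPM (SD, n = 4 each), a log2 fold change of 0.78 (SE 0.23, 95% interval 0.27 to 1.30, edgeR adjusted p = 0.0227). Leaving out KO replicate 3 or 4, or WT replicate 2, 3 or 4, ended the call (adjusted p = 0.0680, 0.0579, 0.0562, 0.0540 and 0.0714). The value without WT replicate 1 was the highest of the 8, at 1.00 on the log2 scale. Ctgf (ENSMUSG00000019997; chromosome 10, 24595442 to 24598683, plus strand) was at 94.1, 136, 149 and 131 CPM in KO, against 106, 83.4, 106 and 72.8 CPM in WT. KO replicate 1 lay within the WT values and the other 3 KO libraries lay above them. Ctgf had a log2 fold change of 0.47 (SE 0.19, interval 0.06 to 0.89 without adjustment, adjusted p = 0.0650), so it missed the threshold. It passed without KO replicate 1 (0.58, adjusted p = 0.0168), with upper-quartile factors (0.66, adjusted p = 0.0260) and with library size only (0.67, adjusted p = 0.0317). An annotated transcript on the opposite strand, Gm15270, overlaps all 3 exonic blocks of Ctgf. Strand use in the counting is not stated, so its reads may be included. Likewise, antisense transcripts overlap 1 exonic block of Asap1 (Gm20717) and 1 of Gadd45a (E230016M11Rik).

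The pair did not differ detectably in response. Within a library, the ratio of Cyr61 to Ctgf counts does not depend on scaling. It was 3.45, 2.46, 3.45 and 3.55 in KO replicates 1 to 4, against 3.19, 2.47, 2.04 and 2.64 in WT. The mean log2 ratio was 1.68 ± 0.25 in KO and 1.35 ± 0.27 in WT (SD, n = 4 each), a difference of 0.32 (exact two-sided permutation p = 0.114 over 70 assignments, where 0.0286 is the smallest possible). KO replicate 2 lay within the WT ratios and the other 3 KO libraries lay above them. A p that misses the threshold does not show that the pair responds alike. Among the other CCN genes, only Wisp1 was tested. It averaged 0.328 CPM in KO and 0.766 CPM in WT (log2 fold change -1.22, edgeR adjusted p = 0.129). Nov, Wisp2 and Wisp3 did not pass the filter on low counts. Of 11 receptor genes for CCN proteins, 9 were tested, with 5 positive and 4 negative fold changes. Of the 9, 3 were called higher and none lower, beside 20.9% and 20.6% of all tested rows. Sdc4, a syndecan, averaged 117 ± 26.8 CPM in KO and 38.2 ± 7.42 CPM in WT (log2 fold change 1.61, adjusted p = 0.00092). The integrin genes Itgb2 and Itgb5 had log2 fold changes of 1.91 and 0.80 (adjusted p = 0.00356 and 0.0236). Itgb2 encodes an integrin of leukocytes, whose marker list was also higher in KO (values above), and its part in the Itgb2 result was not tested.

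Crim1 and F3 encode proteins anchored in the plasma membrane. CRIM1 is a transmembrane protein with cysteine-rich repeats that binds BMP ligands. Crim1 (ENSMUSG00000024074; chromosome 17, 78200248 to 78376592, plus strand) was at 195, 385, 370 and 360 CPM in KO replicates 1 to 4, against 180, 172, 216 and 145 CPM in WT. KO replicate 1 lay within the WT values, and the other 3 KO libraries lay well above them. The means were 327 ± 88.9 CPM in KO and 178 ± 29.5 CPM in WT (SD, n = 4 each). This gave a log2 fold change of 0.88 (interval 0.37 to 1.39, SE 0.23, edgeR adjusted p = 0.0136), and of 1.04 (adjusted p = 0.00105) without KO replicate 1. The call held with each of the 8 libraries left out. Fez2, a gene on the opposite strand that overlaps 3 of the 17 exonic blocks of Crim1, averaged 172 CPM in KO and 155 CPM in WT (log2 fold change 0.15, adjusted p = 0.323). Without stranded counting the genes cannot be told apart in those blocks. Of 11 genes (Crim1, Kcp and genes for CRIM1 ligands, BMP receptors and BMP responses), 7 were tested. Of these, 2 were higher and none lower, beside 20.9% and 20.6% of all tested rows. The other increase was Bmp2, at 15.4 ± 7.44 CPM in KO and 4.09 ± 1.85 CPM in WT (1.91, adjusted p = 0.00986). Its KO replicate 1, at 5.34 CPM, lay within the WT values of 2.49 to 6.07 CPM. The BMP response genes Id1, Id2 and Id3 had log2 fold changes of 0.08, -0.17 and 0.80 and were not called.

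F3 encodes tissue factor, the cell-surface protein that starts blood clotting. F3 (ENSMUSG00000028128; chromosome 3, 121723537 to 121735048, plus strand) was at 16.3, 10.4, 17.0 and 20.5 CPM in KO, against 23.0, 29.0, 25.0 and 18.8 CPM in WT. The genotypes overlapped only through KO replicate 4, which lay above WT replicate 4. F3 had a log2 fold change of -0.58 (SE 0.22, interval -1.08 to -0.08 without adjustment, edgeR adjusted p = 0.0610). It passed the threshold without KO replicate 4 (-0.71, adjusted p = 0.0489), without WT replicate 4 (-0.70, adjusted p = 0.0495) and with DESeq2 (-0.57, adjusted p = 0.0448). Of 11 genes at the start of coagulation, 4 were tested. Procr, the protein C receptor, averaged 36.6 ± 7.43 CPM in KO and 22.5 ± 4.17 CPM in WT (0.70, adjusted p = 0.0179). The inhibitor Tfpi (0.17) and the thrombin receptor F2r (0.06) were not called. The 7 others, F7, F10, F2, Tfpi2, F2rl1, F2rl2 and Thbd, did not pass the filter, and 5 of them had no count in any library.

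Dock5 and Asap1 encode regulators of small GTPases at adhesions and membrane ruffles, and both were lower in KO. DOCK5 is an exchange factor that activates Rac. Dock5 (ENSMUSG00000044447; chromosome 14, 67752135 to 67933442, minus strand) was at 92.0, 80.6, 75.6 and 81.5 CPM in KO replicates 1 to 4, against 159, 117, 119 and 154 CPM in WT. Every KO library lay below every WT library. The means were 82.4 ± 6.86 CPM in KO and 137 ± 22.05 CPM in WT (SD, n = 4 each), a log2 fold change of -0.74 (SE 0.15, interval -1.07 to -0.40, edgeR adjusted p = 0.0049). The call held with each of the 8 libraries left out, with log2 fold changes between -0.82 and -0.66. Of 14 DOCK and ELMO genes, Dock5 included, 11 were tested. Of these, 3 were higher and 2 lower, near the 20.9% and 20.6% of all tested rows. Dock1, which also activates Rac, was the other decrease (96.5 ± 5.44 CPM in KO and 150 ± 21.5 CPM in WT, adjusted p = 0.00662). Dock6 and Elmo1, an adaptor of DOCK proteins, were higher (0.86 and 2.35, adjusted p = 0.00792 and 0.00629), and so was Dock9 (0.54, adjusted p = 0.0480), named after its value was seen.

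ASAP1 is a GTPase-activating protein for ARF proteins that also binds actin regulators. Asap1 (ENSMUSG00000022377; chromosome 15, 64086857 to 64382919, minus strand) was at 206, 244, 193 and 211 CPM in KO, against 525, 262, 271 and 500 CPM in WT. Every KO library lay below every WT library, but the WT libraries fell into the pairs named above. WT replicates 1 and 4 averaged 512 CPM and replicates 2 and 3 averaged 267 CPM, a ratio of 1.92, and KO replicate 2 at 244 CPM stood close to the lower pair. On the log2 scale Asap1 differed by -0.87 (SE 0.25, interval -1.42 to -0.31, edgeR adjusted p = 0.0204). The call was lost without KO replicate 3, KO replicate 4 or WT replicate 1 (adjusted p = 0.0599, 0.0511 and 0.0562), and leaving out 1 library gave values between -1.02 and -0.69. Summing each WT pair into 1 unit was tried after seeing the data, and under it Dock5 and Asap1 stayed called (-0.77 and -0.90, adjusted p = 0.0299 and 0.0479), while Cyr61 and Crim1 did not (0.75 and 0.84, adjusted p = 0.0715 and 0.0764). The same WT pairs differed for Dock5 by a ratio of 1.32 and for Ankrd1 by 1.71. Of 6 ASAP and ARF genes, Asap1 included and all tested, 1 was higher and 2 were lower. Among all tested rows, 20.9% were higher and 20.6% lower. Asap3, a relative of Asap1, was higher, at 5.20 ± 0.724 CPM in KO and 0.569 ± 0.202 CPM in WT (log2 fold change 3.18, adjusted p = 0.000463), while Asap2 was not called (-0.11, adjusted p = 0.724). Arf6, a GTPase of the plasma membrane, was lower in KO (-0.49, adjusted p = 0.0137).

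Myof encodes myoferlin, a calcium-binding membrane protein that takes part in membrane repair and receptor recycling. Myof (ENSMUSG00000048612; chromosome 19, 37899036 to 38043577, minus strand) was at 545, 651, 596 and 610 CPM in KO, against 598, 533, 545 and 705 CPM in WT. The KO values lay inside the WT range. The difference was 0.01 on the log2 scale (SE 0.15, 95% interval -0.33 to 0.36, edgeR adjusted p = 0.953). Of 6 ferlin genes, Myof included, 4 were tested. Of these, 2 were higher and none lower in KO, beside 20.9% and 20.6% of all tested rows. Dysf, the closest relative of Myof, averaged 9.55 ± 1.75 CPM in KO and 1.603 ± 0.479 CPM in WT (2.57, edgeR adjusted p = 0.00053), and Fer1l6 averaged 123 ± 45.3 CPM in KO and 57.6 ± 4.09 CPM in WT (1.10, adjusted p = 0.00918).

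The remaining 3 genes encode intracellular proteins of stress and cytoskeletal responses, and none was called. Ankrd1 encodes a cofactor with ankyrin repeats found in muscle nuclei and sarcomeres. Ankrd1 (ENSMUSG00000024803; chromosome 19, 36111961 to 36120099, minus strand) was at 49.9, 45.7, 50.3 and 52.6 CPM in KO, against 70.6, 38.1, 29.95 and 45.5 CPM in WT. The KO libraries were close together (coefficient of variation 5.80%) and inside the WT range (38.1%). Ankrd1 had a log2 fold change of 0.11 (SE 0.24, interval -0.42 to 0.64, edgeR adjusted p = 0.736), and of -0.068 without WT replicate 3. Its relative Ankrd23 was not called (0.50, adjusted p = 0.147). Mypn, whose muscle protein myopalladin binds ANKRD1, had no count in any KO library and averaged 2.05 CPM in WT, at least 22.4-fold lower in KO against a floor of 3 counts per library.

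NUAK2 is a kinase of the AMPK family that is activated by LKB1 and acts on actomyosin. Nuak2 (ENSMUSG00000009772; chromosome 1, 132316126 to 132333488, plus strand) was the lowest of the 10 in CPM, at 2.97, 3.44, 3.64 and 3.03 CPM in KO, against 4.64, 4.44, 5.93 and 3.09 CPM in WT. KO replicates 1 and 4 lay below WT replicate 4, and all 4 KO libraries lay below the other 3 WT libraries. Nuak2 had a log2 fold change of -0.47 (SE 0.26, interval -1.05 to 0.12, edgeR adjusted p = 0.173), and it was not called under any of 19 alternatives. All 8 genes listed around NUAK kinases were tested, and all 8 had negative fold changes, with a median of -0.27 on the log2 scale (0.02 over all tested rows). Of them, none was higher and 2 were lower in KO by edgeR's test, beside 20.9% and 20.6% of all tested rows. These were Cab39, a partner of LKB1 (-0.70, adjusted p = 0.00663), and Mprip, which targets myosin phosphatase to actin (-0.54, adjusted p = 0.0199).

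GADD45A is a stress sensor induced by p53 and by DNA damage. Gadd45a (ENSMUSG00000036390; chromosome 6, 67035096 to 67037457, minus strand) was at 42.5, 22.1, 78.0 and 93.2 CPM in KO, against 21.2, 80.4, 29.2 and 31.3 CPM in WT. It spread most of the 10 genes, with coefficients of variation of 55.1% in KO and 66.5% in WT, where medians over 9319 rows with at least 10 CPM were 15.7% and 18.0%. WT replicate 2 lay above 3 of the 4 KO libraries. Gadd45a had a log2 fold change of 0.54 (SE 0.50, interval -0.57 to 1.65, edgeR adjusted p = 0.403), so that a fold of either sign was inside its interval. Of 12 genes around GADD45 and p53, 11 were tested, with 4 higher and 1 lower, beside 20.9% and 20.6% of all tested rows. Btg2, an antiproliferative p53 target, averaged 65.7 ± 23.5 CPM in KO and 6.10 ± 3.51 CPM in WT (3.43, edgeR adjusted p = 0.000733). Bbc3, which encodes PUMA, and Mdm2, the ligase for p53, were also higher (1.58 and 1.02, adjusted p = 0.00416 and 0.00587). Trp53 itself averaged 115 ± 29.0 CPM in KO and 220 ± 26.7 CPM in WT (-0.94, adjusted p = 0.00484). The fourth increase, named after its value was seen, was Cdkn1a (0.97, adjusted p = 0.00868).

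**Figure D3:**
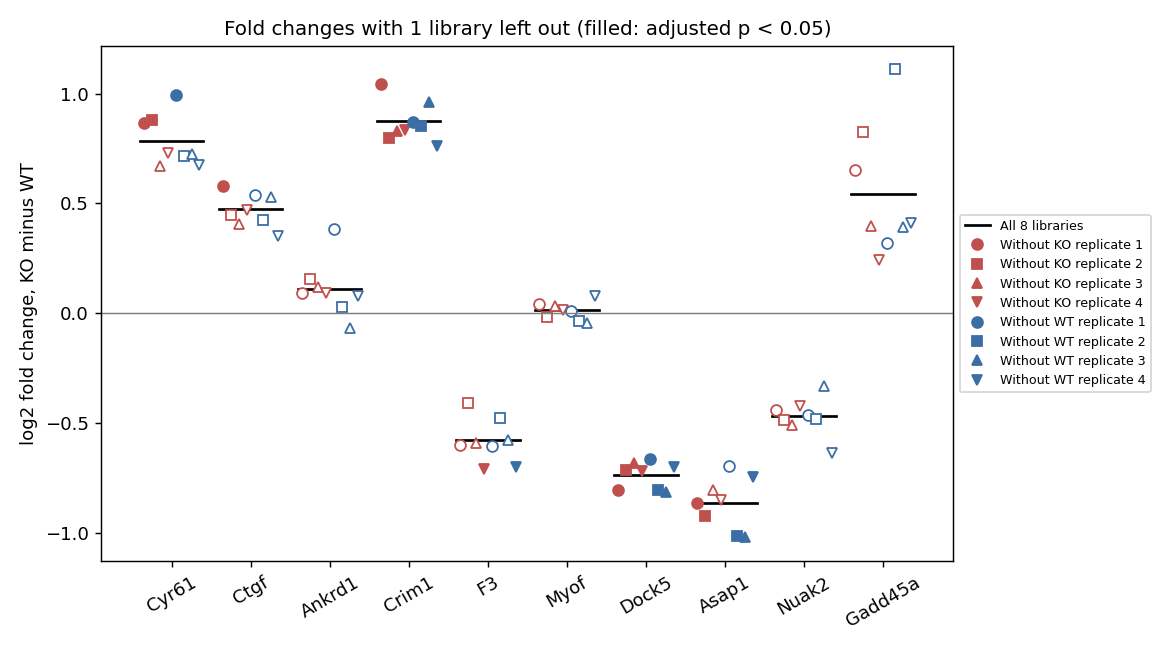
Log2 fold change (KO minus WT) of each gene with all 8 libraries (line) and with 1 library left out (points; red for a KO library, blue for a WT library). Points are filled where edgeR's adjusted p was under 0.05. Dock5 and Crim1 are filled in all 8 cases, Asap1 in 5, Cyr61 in 3, F3 in 2 and Ctgf in 1.

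The calls for Dock5 and Crim1 held in the most settings. Over 20 alternatives each, Dock5 was called in 19, Crim1 in 18, Asap1 in 15, Cyr61 in 12, Ctgf in 5 and F3 in 3, and Ankrd1, Myof and Gadd45a in none. These tallies include the unplanned settings, WT summed into pairs and KO replicates 1 and 3 both left out. They leave out the threshold of 0.01, at which Dock5 alone was called. KO and WT differ in the G2/M level, with 15 of the 20 genes called lower in KO, beside 20.6% of all tested rows. As a mean log2 level centred on the 8 libraries, it was at most 0.476 in KO and at least 0.880 in WT. Genotype and G2/M level therefore cannot be told apart here. Adding each library's mean G2/M level to the model was tried nonetheless. It left no member called, and the calls over the whole table numbered 478. The log2 fold change of Dock5 was then -0.51 (SE 0.24, edgeR adjusted p = 0.241) and that of Asap1 -0.72 (SE 0.49, adjusted p = 0.393). For Cyr61 it was 0.33 (SE 0.38, adjusted p = 0.613) and for Crim1 0.10 (SE 0.31, adjusted p = 0.862). Without the covariate the SEs of these genes were 0.15, 0.25, 0.23 and 0.23.

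Levels of different genes were compared per kb of exon, with lengths from GENCODE M21. Cyr61 was the highest of the 10 in both genotypes, at 203 ± 46.8 CPM per kb in KO and 118 ± 33.5 CPM per kb in WT (SD, n = 4 each), and Nuak2 the lowest, at 0.834 ± 0.0823 CPM per kb in KO and 1.154 ± 0.297 CPM per kb in WT. In KO the order was Cyr61, Crim1 (54.6 ± 14.8), Myof (47.6 ± 3.48), Ctgf (44.6 ± 8.28), Gadd45a (33.4 ± 18.4), Asap1 (28.6 ± 2.86), Ankrd1 (17.2 ± 0.997), Dock5 (6.77 ± 0.564), F3 (6.36 ± 1.66) and Nuak2. In WT it was Cyr61, Asap1 (52.1 ± 19.0), Myof (47.2 ± 6.21), Ctgf (32.1 ± 5.81), Crim1 (29.8 ± 4.92), Gadd45a (23.0 ± 15.3), Ankrd1 (16.0 ± 6.08), Dock5 (11.3 ± 1.81), F3 (9.49 ± 1.68) and Nuak2. Neighbours from Crim1 to Asap1 in the KO order, and from Asap1 to F3 in the WT order, had means closer than 1 SD (the larger of the pair), apart from Myof and Ctgf in WT. Dock5 and F3 in KO did too. Crim1 stood at rank 2 in KO and 5 in WT, and Asap1 at rank 6 in KO and 2 in WT.

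**Figure D4:**
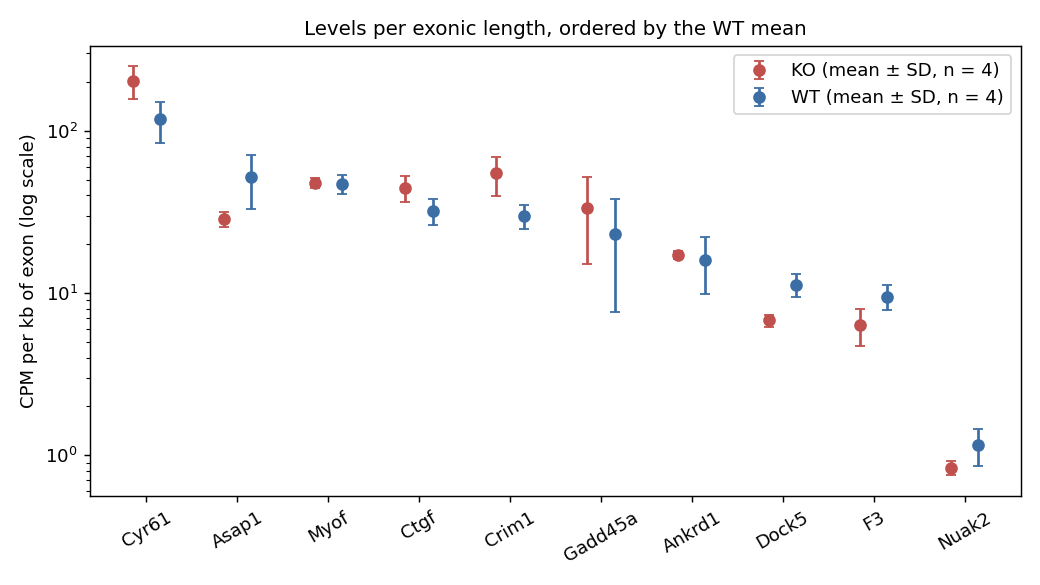
Mean level of each gene per kb of exon (CPM per kb, log axis) in KO (left point) and WT (right point), ordered by the WT mean, with bars for SD (n = 4). Cyr61 lies above 100 CPM per kb in both genotypes and Nuak2 near 1.

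The 10 genes belong to a published signature of 22 YAP targets, and its other 12 genes were described in the same way. Of these, 7 were tested, with a median log2 fold change of -0.08 (0.02 over all tested rows). None was higher and 1 was lower in KO, beside 20.9% and 20.6% of all tested rows. The decrease was Lats2, a Hippo kinase gene that YAP induces, at 64.8, 83.9, 78.3 and 79.6 CPM in KO, against 160, 114, 140.4 and 128 CPM in WT (-0.82, edgeR adjusted p = 0.00302). Axl, a receptor tyrosine kinase gene, averaged 1196 ± 189 CPM in KO and 1262 ± 107 CPM in WT (-0.08, adjusted p = 0.750). Amotl2, Ptpn14 and Arhgef17 were not called either (-0.14, 0.11 and -0.28). Igfbp3, Fjx1, Foxf2, Nt5e and Rbms3 did not pass the filter, 3 of them with no count in any library. Of 21 further genes reported as YAP or TEAD targets, 18 were tested, with a median of 0.49. Of these 18, 7 were higher and 3 lower, beside 20.9% and 20.6% of all tested rows. Anxa1, a calcium-dependent phospholipid-binding protein gene, averaged 503.8 ± 22.6 CPM in KO and 273 ± 45.3 CPM in WT (0.88, adjusted p = 0.00282). Thbs1, which encodes the matrix protein thrombospondin, averaged 176 ± 67.7 CPM in KO and 75.4 ± 11.6 CPM in WT (1.22, adjusted p = 0.00536). Edn1, which encodes the peptide endothelin, went the other way, at 2.92 ± 0.443 CPM in KO and 7.41 ± 1.81 CPM in WT (-1.34, adjusted p = 0.00345). Itgb2, counted above among the CCN receptors, is also on this list. The other calls, named after their values were seen, were Amotl1, Tgfbr2 and the EGF receptor ligands Areg and Ereg as higher (0.74, 0.54, 2.23 and 1.38 on the log2 scale), and Myc and Ddah1 as lower (-1.03 and -1.04). KO and WT values overlapped for Areg, Ereg, Myc and Ddah1, but not for Amotl1 and Tgfbr2. Areg in KO replicates 1 and 2 (7.27 and 7.37 CPM) lay below WT replicate 4 (8.59 CPM). Ereg in KO replicate 1 (122 CPM) lay below WT replicates 1 and 4 (128 and 153 CPM). Among genes for TEAD factors and their partners, Tead1 and Tead4 were lower, Yap1 was higher, and Tead2, Tead3 and Wwtr1 were not called (-0.07, -0.31 and 0.08). Yap1 averaged 191 ± 15.4 CPM in KO and 122 ± 12.02 CPM in WT (0.65, adjusted p = 0.00507).

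**Figure D5:**
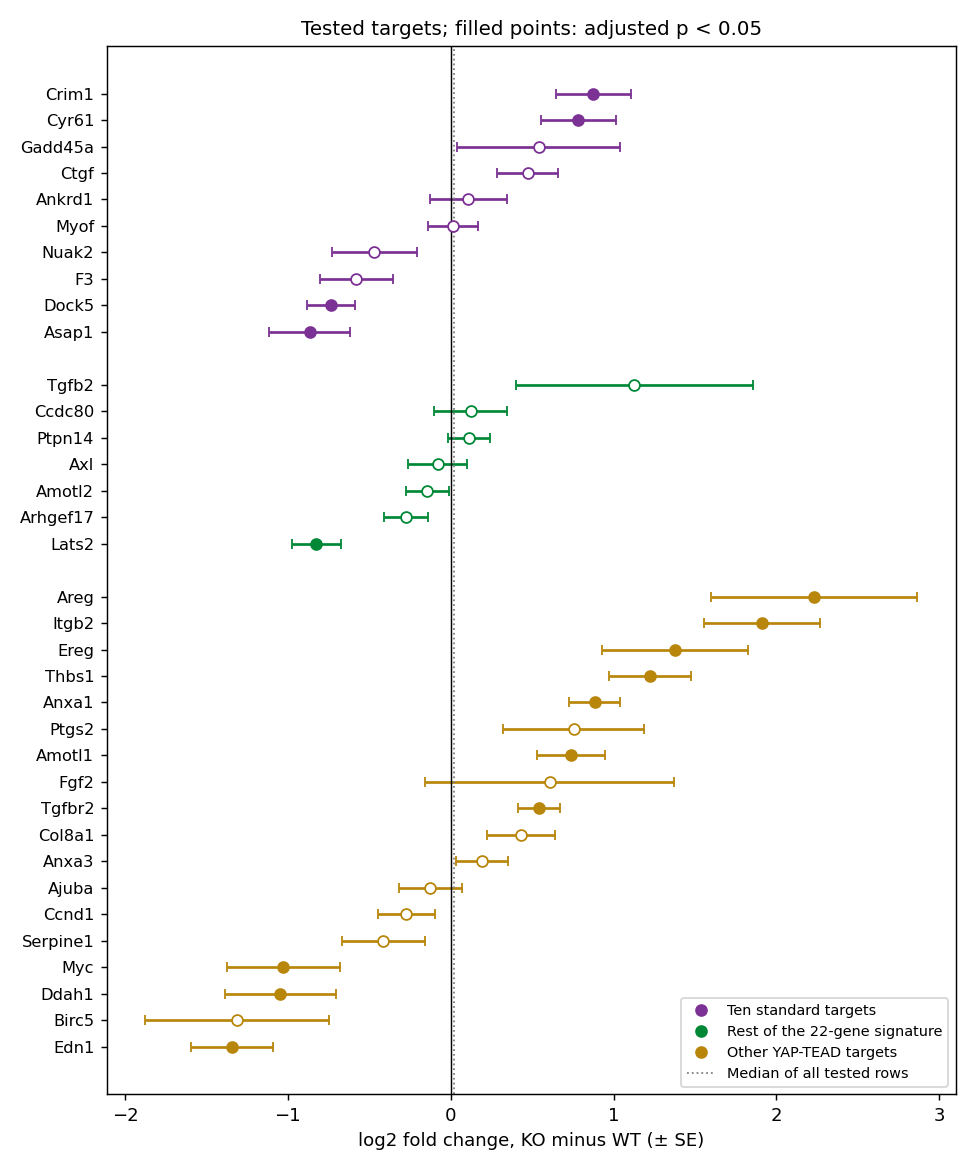
Log2 fold change (KO minus WT, ± SE) of all tested YAP and TEAD targets in 3 lists, filled where edgeR's adjusted p was under 0.05. The dotted line is the median of all tested rows (0.02). Each list has genes on both sides of 0, and the 10 standard targets run from Asap1 at -0.87 to Crim1 at 0.88.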

How the data were processed

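RNA from 8 CT26 libraries, 4 KO and 4 WT by title and genotype label, was extracted with TRIzol and sequenced from an mRNA library kit, per the labels' protocols. HISAT2, StringTie and GRCm38 are named without versions, per the submitters' processing notes. The authors deposited raw counts per gene in 2 tables with identical values. Neither the counting program nor its treatment of strand and shared reads is given in the sources used here. Of 26642 rows, 22036 are annotated genes.

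Rows were filtered with filterByExpr (minimum count 10, minimum total 15), scaled with TMM and tested with edgeR 4.0.16 (quasi-likelihood, R 4.3.3), two-sided, for KO minus WT without covariates. Benjamini-Hochberg adjustment ran over all 13265 tested rows, with a threshold of 0.05. Standard errors are |log2 fold change|/sqrt(F), and 95% intervals are not adjusted. The common biological coefficient of variation was 0.294. The Cyr61 to Ctgf ratio (counts plus 0.5) was compared by an exact permutation test. Lengths and coordinates come from GENCODE M21 and promoters from RefSeq. With 3 counts as a floor, counting error only is covered. Pairs of libraries of 1 genotype were compared by chi-square (rows with 20 or more counts summed over the pair), and no pair agreed within sampling noise.

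Members, lists, alternatives and the naming rule were chosen with earlier results of these data known. The rule names all members, the TEAD genes with Yap1 and Wwtr1, signature genes that were called or had at least 10 CPM, and up to 4 called genes with the smallest p from each other list. Uncalled genes named from the other lists were picked after their values were seen. Alternatives were other scalings (DESeq2 size factors, upper quartile, none), other filters (none, or 5 CPM in 4 libraries), DESeq2 1.42.0, limma-voom (limma 3.58.1), a replicate block, annotated genes only, a G2/M covariate, a threshold of 0.01 and each library left out. Outside this plan, WT was summed into 2 pairs, and KO replicates 1 and 3 were both left out.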

Additional observations from a re-analysis of the deposited data

Results flagged for a closer look

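Each gene's 4 values per genotype, and the Cyr61 to Ctgf ratio, were examined for a library whose gap to its nearest neighbour took up most of the range, by Dixon's critical value. Of 22 groups, 4 held such a library, where chance gives about 1 in 20. Crim1 in KO replicate 1 stood at 195 CPM, below 360 to 385 CPM in the other KO libraries (gap 0.873 of the range). Cyr61 in WT replicate 1 stood at 338 CPM, above 192 to 216 CPM in the other WT libraries (0.839). Gadd45a in WT replicate 2 stood at 80.4 CPM, above 21.2 to 31.3 CPM in the other WT libraries (0.830). The ratio of Cyr61 to Ctgf was 2.46 in KO replicate 2, below 3.45 to 3.55 in the other KO libraries (0.910).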

How the results depend on the processing

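With 1 library left out, 1 to 3 members were called higher and 1 to 3 lower (2 and 2 with all 8), 2041 to 3420 rows higher and 1768 to 3409 lower (2779 and 2734 with all). The lowest lower count came without KO replicate 3. With the G2/M covariate, which cannot be told apart from genotype here, no member was called higher or lower (0 and 0), with 396 rows higher and 82 lower. At an adjusted p under 0.01, 0 members were higher and 1 lower, with 1488 rows higher and 1248 lower. With WT summed into 2 pairs, a setting chosen after seeing the data, 0 members were higher and 2 lower, with 1652 rows higher and 1482 lower. Without both KO replicates 1 and 3, also added, 1 member was higher and 1 lower (Cyr61 and Asap1 lost their calls, adjusted p = 0.0645 and 0.112), with 2396 rows higher and 2283 lower. DESeq2 called 3 members in each direction, with Ctgf and F3 added, and more rows in all, 3229 higher and 3139 lower. Under the stricter filter Ctgf was called (adjusted p = 0.0418) and Nuak2 gave no value. Signs turned only for genes that were not called: Myof to -0.086 with the G2/M covariate and -0.025 with WT in pairs (-0.045 to 0.079 with 1 library left out, negative without KO replicate 2, WT replicate 2 or WT replicate 3); Ankrd1 without WT replicate 3 (range -0.068 to 0.38); and Gadd45a to -0.57 with the G2/M covariate. The cause of these changes was not tested. Same-numbered libraries did not deviate together (correlations -0.0317 to -0.00276). The replicate block gave 2 members higher and 2 lower, 2391 rows higher and 2292 lower, and a log2 ratio difference of 0.32 (exact paired permutation p = 0.25, where 0.125 is the smallest that 4 pairs allow). The ratio difference lay between 0.22 and 0.45 with 1 library left out, and was 0.32 with a pseudocount of 5.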

Other observations

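Among 9072 annotated genes averaging 10 CPM or more, the log2 levels most like those of Cyr61 over the 8 libraries, by Pearson correlation, were those of Plk2 (0.96), Nfkbiz (0.95), Clk4 (0.95), Pgap1 (0.95) and Asah2 (0.94). Genotype and scaling are shared by all these values, so they are a description. Plk2, a polo-like kinase gene, averaged 328 CPM in KO and 127 CPM in WT (log2 fold change 1.37, edgeR adjusted p = 0.0062). Nfkbiz, which encodes an atypical IkappaB protein, averaged 44.2 CPM in KO and 25.7 CPM in WT (0.79, adjusted p = 0.0273). Of the other standard targets, Ctgf stood at rank 157 (0.85) and Crim1 at rank 459 (0.79). Ankrd1, Gadd45a and Myof stood at ranks 1608, 2690 and 3687, and F3, Asap1 and Dock5 had negative correlations with Cyr61 (-0.41, -0.50 and -0.70).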
